A study of Mus musculus with 162 samples.

Results

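Potassium channel genes were examined in trigeminal ganglia (TG) and spinal cord of mice with MC903-evoked dermatitis. The members were the 94 protein-coding genes of the count files whose symbol starts with Kcn and that reached at least 10 counts in total over the 65 TG libraries, out of 46078 genes listed. No Kcn gene was lost to that minimum, although Kcnj1 had only 8 counts once the 9 wild-type day 12 ganglia, which entered no comparison, were set aside. MC903 (calcipotriol, a vitamin D analog) was painted once daily at 0.2 mM in ethanol on the shaved cheek for ganglia or on the rostral back for cord, and ethanol alone was the vehicle. All groups were adult male C57BL/6 mice, either wild-type or labelled TSLPR KO, which carry Crlf2tm1Jni, a targeted allele of the gene for the receptor of the keratinocyte cytokine TSLP. The ganglion ipsilateral to the treated cheek was taken on day 1 (4 MC903 and 4 ethanol libraries), day 2 (3 and 2), day 5 (3 and 3) and day 8 (5 and 5, in cohorts of 2 and 2 and of 3 and 3) from uninjected wild-type mice. Wild-type ganglia were also taken on day 8 after PBS injections (4 and 3) or after 250 µg injections of aGr1, an antibody that depletes neutrophils (4 and 4). TSLPR KO ganglia came from day 8 (2 and 2) and day 12 (4 and 4). Cord libraries were all wild-type and from day 8, of uninjected (4 and 5), PBS-injected (2 and 2) and aGr1-injected mice (8 and 6). Whether each library came from 1 mouse was not given in the labels, so the tests measure the spread between libraries.

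Potassium channels let potassium leave the cell and so set the resting potential, the threshold and the firing rate of neurons. Voltage-gated families (Kcna to Kcnd, Kcnh and Kcnq) open on depolarization, and inward rectifiers (Kcnj) and tandem-pore leak channels (Kcnk) hold the resting potential. Calcium- or sodium-activated channels (Kcnm, Kcnn, Kcnt) follow firing, and their relative Kcnu is counted with them as ion-activated. Silent subunits (Kcnf, Kcng, Kcns, Kcnv) form no channel alone and modify the Kcnb channels they join, and the auxiliary genes (Kcnab, Kcne, Kcnip, Kcnmb and others) encode subunits that bind pore-forming ones. The 94 members comprised 8 Kcna (Kv1), 2 Kcnb (Kv2), 4 Kcnc (Kv3), 3 Kcnd (Kv4), 8 Kcnh, 5 Kcnq, 15 Kcnj and 14 Kcnk genes, together with 8 ion-activated pore-forming, 10 silent and 17 auxiliary genes.

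Counts on genes ran from 15931871 to 62105901 per ganglion library and from 21595429 to 50591655 per cord library, and the 94 members held 0.316 to 0.740% of them in ganglia and 0.612 to 0.740% in cord. Levels are given in cpm, counts scaled to library size after TMM normalization. Scn10a, a sodium channel of nociceptors, was between 98.6 and 1216 cpm in every ganglion library and at most 0.387 cpm in cord, which separated the tissue labels. Crlf2, the gene targeted in TSLPR KO mice, was 0 to 0.228 cpm in the libraries labelled TSLPR KO at day 8 and 0.901 to 1.996 cpm in those labelled TSLPR KO at day 12, a range that overlapped that of wild-type ganglia on day 2 (1.34 to 3.18 cpm). Which part of Crlf2 the allele removes was not given in the sources used here. The library labelled wild-type ethanol replicate 2 of the second day 8 cohort was at 0.118 cpm, while the other 9 wild-type day 8 libraries were at 3.18 to 6.97 cpm. On day 1, MC903 replicates 1 and 2 had summed sensory neuron markers of 1956 and 2635 cpm against 4425 to 5968 cpm in the other 6, and the share of counts on the members was lowest in replicate 1. Pituitary markers summed to 4344 cpm in day 1 ethanol replicate 1 and to 10904 and 5956 cpm in day 5 ethanol replicates 2 and 3.

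The resting repertoire was read from ethanol-treated, uninjected wild-type mice on day 8 (5 ganglia and 5 cords, from separate animals). Per kilobase of exon, Kcna1 led in ganglia and Kcnj10 in cord, and 5 genes held 54.5% of the summed potassium channel level in ganglia and 58.7% in cord. At 1 cpm or more there were 73 members in ganglia and 72 in cord, and at 10 cpm or more 43 in each. In ganglia Kcna1, a delayed rectifier subunit of axons, stood at 277 ± 30.8 cpm per kilobase (SD, n = 5). Kcna2, its usual partner, followed at 108 ± 13.02, and Kcnab2, a cytoplasmic subunit of the same channels, at 107 ± 7.83 cpm per kilobase. The Kcna1 libraries lay above every Kcna2 library, whereas those of Kcna2 and Kcnab2 overlapped and were not separated by their spread. Kcnk1, a leak channel gene, was at 76.2 ± 9.45 and Kcns3, a silent subunit gene, at 59.7 ± 9.86 cpm per kilobase, with libraries that overlapped for Kcns3 and for the next gene, Kcnd1 (54.5 ± 2.52). In cord Kcnj10, the inward rectifier of astrocytes and other glia, stood at 235 ± 33.1 cpm per kilobase. Kcna1 came next at 170.3 ± 23.6 cpm per kilobase. Also among the 5 leading genes were Kcna2 (66.8 ± 3.31) and Kcnk1 (61.4 ± 1.62), whose library ranges met. Among members at 1 cpm or more, the coefficient of variation over the 5 libraries had a median of 19.5% in ganglia and 13.01% in cord.

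**Figure D1:**
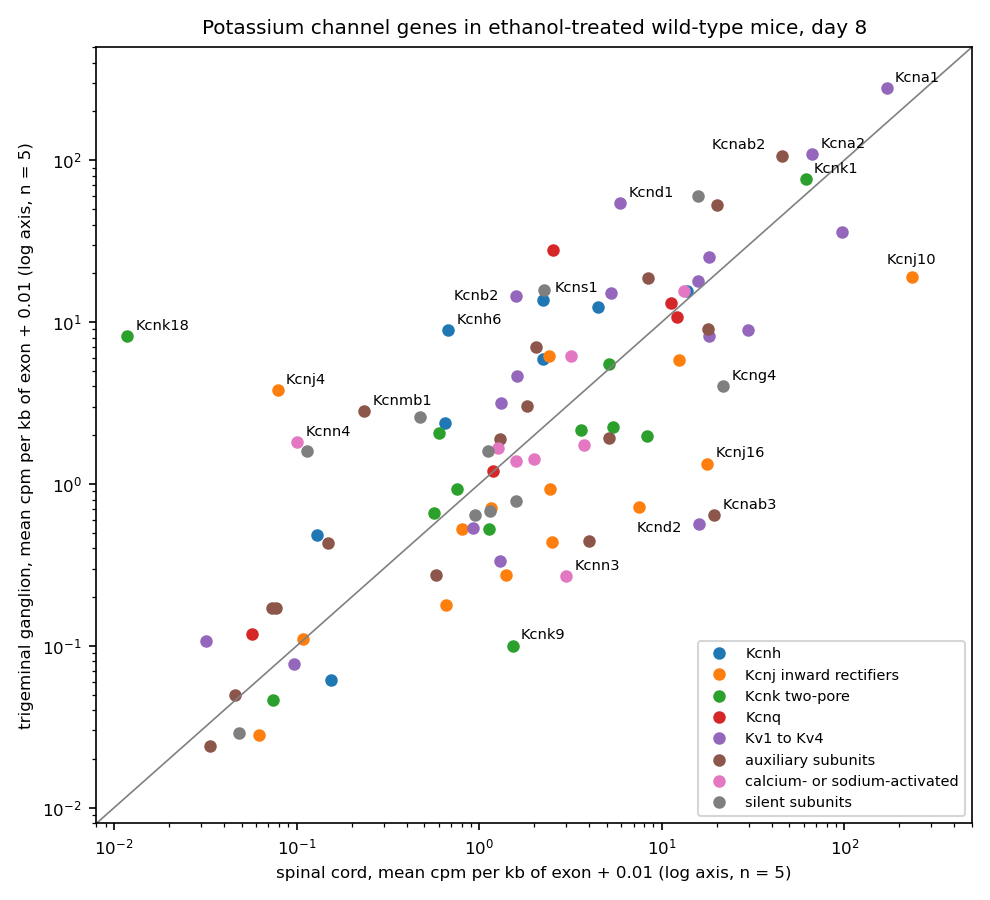
Mean level of each of 91 members in ethanol-treated, uninjected wild-type mice on day 8, in cpm per kilobase of exon plus 0.01, with cord on the horizontal and ganglion on the vertical log axis (5 libraries each, colours for families) and a line of equal level. Kcnk18 stands farthest above the line and Kcnab3, Kcnd2 and Kcnj10 well below it.

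Ganglion and cord differed in most members. Of the 91 members tested (Kcnj1, Kcnk15 and Kcnk16 had fewer than 10 counts over these 10 libraries), 51 differed by over 2-fold at an adjusted p under 0.05 in edgeR's quasi-likelihood test, which is 56.04% against 21.5% of all 25788 genes tested. Of these, 26 were higher in ganglia (background 10.3%) and 25 higher in cord (background 11.2%). The libraries of the tissues did not overlap for any of the 51, which is not set against all genes. Genes chosen for such a difference seldom overlap. In some families the called genes lay mostly on the same side. The 6 Kcnh genes called (of 8), both Kcnb genes and 4 of the 6 called silent genes were higher in ganglia, whereas all 3 called Kcnc genes and 8 of the 10 called Kcnj genes were higher in cord. Of 14 Kcnj genes tested the median log2 difference (ganglion over cord) was -1.45, and of the 8 Kcnh genes it was 1.67, beside 0.031 over all genes. The Kcnd family was divided, with Kcnd1 and Kcnd3 higher in ganglia and Kcnd2 higher in cord. The called Kcna, Kcnk, Kcnn and auxiliary genes also lay on both sides.

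Several genes higher in ganglia, Kcnn4 and Kcnj4 among them, were below 1 cpm in every cord. Kcnn4, the intermediate-conductance calcium-activated channel, was at 8.03, 9.70, 9.81, 7.67 and 10.9 cpm in the ganglia and 0.0643, 0.766, 0.241, 0.779 and 0.474 cpm in the cords, a log2 difference of 4.30 ± 0.42 (SE). Kcnj4, a strong inward rectifier, was at 7.04, 7.397, 8.36, 9.99 and 7.93 cpm in the ganglia and 0, 0.214, 0.207, 0.186 and 0.132 cpm in the cords, a log2 difference of 5.76 ± 0.40 (SE). Every ganglion library lay above every cord library for both genes, and the cord values amount to few counts. Kcnh6, a channel of the ether-a-go-go-related type, was at 36.9, 36.6, 32.9, 25.9 and 25.9 cpm in the ganglia and 2.80, 1.59, 1.86, 2.30 and 3.24 cpm in the cords, a log2 difference of 3.74 ± 0.21 (SE). Among the other genes of large ganglion excess were Kcng3 (3.90), Kcnmb1 (3.64), Kcnb2 (3.20), Kcnd1 (3.20) and Kcns1 (2.82), all in log2 units. Adjusted p-values of the 8 genes given here by edgeR lay between 1.96e-11 and 1.40e-05.

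Cord exceeded ganglion most for Kcnab3 and Kcnd2. Kcnab3, an auxiliary subunit of Kcna channels, was at 2.45, 1.64, 1.75, 1.49 and 1.68 cpm in the ganglia and 49.1, 55.2, 59.3, 57.7 and 54.9 cpm in the cords, a log2 difference of -4.94 ± 0.14 (SE). Kcnd2, the dendritic A-type channel of central neurons, was at 3.41, 3.82, 1.75, 2.89 and 2.55 cpm in the ganglia and 86.2, 80.7, 75.6, 83.6 and 87.7 cpm in the cords, a log2 difference of -4.83 ± 0.17 (SE). Kcnj10, already named as the leading gene of cord, was at 92.6, 128.3, 107, 80.5 and 107 cpm in the ganglia and 1589, 1183, 1212, 1198 and 1168 cpm in the cords, a log2 difference of -3.62 ± 0.14 (SE). None of these libraries overlapped, and cord replicate 1 was the highest for Kcnj10. Kcnj16, which joins Kcnj10 in heteromeric glial channels, differed by -3.74 ± 0.14 (SE), and Kcnk9, an acid-sensitive leak channel gene, by -4.05 ± 0.35 (SE). Kcnn3 (-3.51), Kcnj14 (-3.40), Kcne1l (-3.18), Kcnj9 (-2.53) and Kcng4 (-2.44) completed the 10 largest cord excesses, with edgeR adjusted p from 8.54e-12 to 1.31e-05.

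Kcnk18 separated the tissues most. It encodes the calcineurin-regulated leak channel TRESK of sensory neurons, at chromosome 19, 59219214 to 59237374, plus strand (GRCm38, GENCODE M21). It had 29.8, 32.6, 29.2, 27.8 and 22.96 cpm in the 5 ganglia, and 4 of the 5 cords had no count. The sums were 4623 counts in ganglia and 1 in cord, a ratio of 4458 per count sequenced whose exact 95% counting interval of 799.8 to 176137 rests on that single count. Over all 27 cord libraries only 54 Kcnk18 counts were found. Its promoter, 250 bases before to 50 after the start site (RefSeq, GRCm38.p6, chr19:59219398-59219697, plus strand), is shown because no other member was so restricted to ganglia; capitals would mark a vitamin D receptor half-site, and it holds none.
Kcnk18 promoter: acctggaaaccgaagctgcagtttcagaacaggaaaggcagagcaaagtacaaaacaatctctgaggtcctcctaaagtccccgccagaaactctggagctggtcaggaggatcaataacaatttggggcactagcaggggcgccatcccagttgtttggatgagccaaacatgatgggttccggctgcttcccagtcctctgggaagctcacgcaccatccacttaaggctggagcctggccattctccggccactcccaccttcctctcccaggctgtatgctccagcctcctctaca

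No potassium channel gene passed the test for MC903 in uninjected wild-type ganglia from day 1 to day 8. By edgeR at an adjusted p under 0.1, 0 of 93 members were called on day 1, 0 of 90 on day 2, 0 of 88 on day 5 and 0 of 91 on day 8, where 0, 0, 0.00823 and 0.16% of all genes were called (on day 8, 0.125% higher and 0.0352% lower). At an unadjusted p under 0.05 there were 7, 8, 9 and 8 members (7.53, 8.89, 10.2 and 8.79%), beside 8.03, 6.34, 3.86 and 6.98% of all genes. DESeq2 called 1 (Kcnj13), 1 (Kcnh5), 1 (Kcne3) and 0, with 0.308, 0.27, 0.202 and 0.82% of all genes. The median log2 fold change (MC903 over ethanol) of the members was -0.31 on day 1, -0.13 on day 2, -0.016 on day 5 and 0.020 on day 8, beside 0.012, 0.018, 0.0036 and 0.0077 for all genes. On day 1 the members' median went with the low sensory neuron markers of MC903 replicates 1 and 2, whose part in it was not tested; in bulk tissue fewer cells of a type and less RNA per cell cannot be told apart. Without those libraries, a choice made after seeing the data, 0 members were called.

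The smallest p-values differed from day to day. On day 1 they belonged to Kcnj13, an inward rectifier of epithelia such as choroid plexus (1.71 ± 0.36 (SE)), Kcnj2 (0.78 ± 0.25 (SE)) and Kcnf1 (-1.10 ± 0.40 (SE)). For Kcnf1, ethanol replicate 1, which had high pituitary markers, was at 11.3 cpm against 3.07 to 4.35 cpm in the other ethanol libraries. Kcnj13 shares 49.1% of its exon bases with Gigyf2 on the opposite strand, whose own log2 fold change was -0.13. On day 2 all 8 members at an unadjusted p under 0.05 were lower with MC903, which is not set against the direction over all genes. Their libraries did not overlap, but genes chosen for a small p with 3 against 2 libraries seldom do. Kcnh5 had 7.43, 5.94 and 4.85 cpm with MC903 and 11.6 and 12.1 cpm with ethanol, a log2 fold change of -0.97 ± 0.23 (SE). Kcnb2 had 158, 149 and 168 cpm with MC903 and 289 and 211 cpm with ethanol, a log2 fold change of -0.66 ± 0.16 (SE). These are an ether-a-go-go and a delayed rectifier gene, and in both the 3 MC903 ganglia were below both ethanol ganglia. Without ethanol replicate 2, which leaves 1 ethanol library assumed to vary like the MC903 libraries, 22 members and 4899 genes were called. On day 5 the leading genes after Kcne3 were the silent subunit genes Kcnf1 (1.01 ± 0.30 (SE)) and Kcng3 (0.66 ± 0.23 (SE)), again without overlap. Kcnd2 (-1.01 ± 0.39 (SE)), Kcnab3 (-1.61 ± 0.65 (SE)) and Kcnh8 (-0.51 ± 0.21 (SE)) lay on the other side. Ethanol replicate 2, which had high pituitary markers, stood out for Kcnd2 and Kcnab3. Kcnd2 had 6.29, 19.9 and 7.65 cpm with ethanol and 6.08, 5.39 and 5.33 cpm with MC903. Kcnab3 had 2.69, 12.1 and 2.71 cpm with ethanol and 0.626, 2.57 and 2.41 cpm with MC903. With both pituitary-marked ethanol libraries left out, a choice made after seeing the data, 0 members were called. On day 8, in a fit that kept the cohorts apart, Kcna2 (-0.24 ± 0.076 (SE)) and Kcnk4, a mechanosensitive leak channel gene (0.67 ± 0.25 (SE)), followed Kcne3, with adjusted p of 0.549 and 0.674 by edgeR. Kcnk4 shares 13.1% of its exon bases with Catsperz on the same strand, whose own log2 fold change was 0.83 ± 0.34 (SE).

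**Figure D2:**
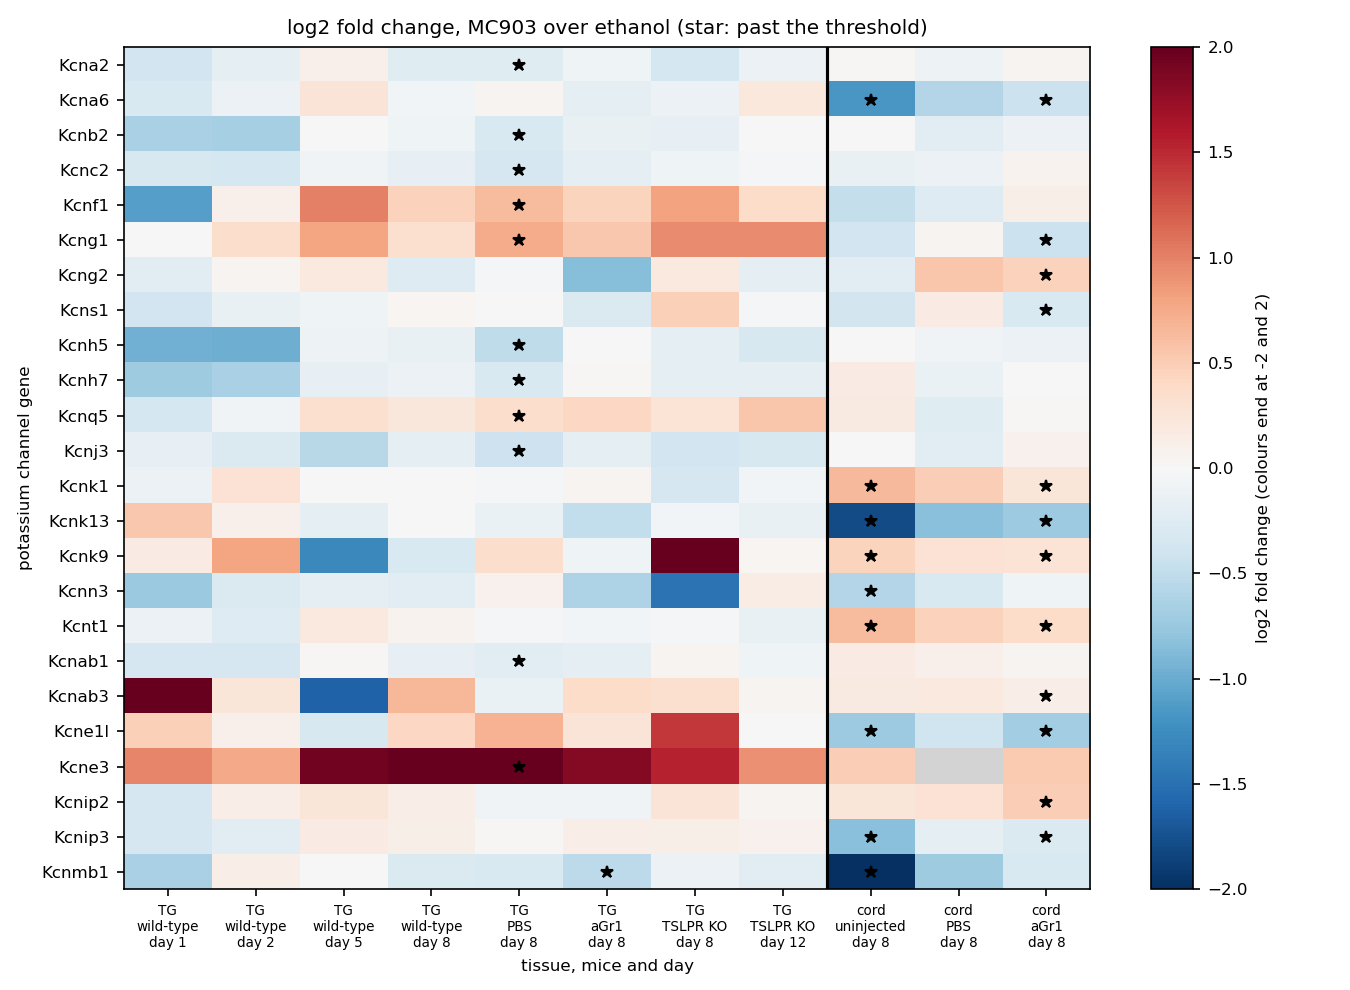
Log2 fold change of MC903 over ethanol for 24 of the 26 members called in at least 1 comparison (rows) in the 8 ganglion and 3 cord comparisons (columns), with stars where a member passed the threshold, grey where it was not tested, and colours that end at -2 and 2. Ganglion stars stand almost only in the PBS column, and cord stars in the uninjected and aGr1 columns.

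Kcne3 was higher with MC903 in all 8 ganglion comparisons, by log2 fold changes of 0.76 to 2.94, its libraries did not overlap in 5 of them, and it was called in 1. The gene encodes a single-span subunit that changes the gating of several Kcnq, Kcnc and Kcnh channels. It lies at chromosome 7, 100176502 to 100184869, plus strand (GRCm38, GENCODE M21), and its level was low throughout. On day 5 it had 2.67, 2.24 and 1.75 cpm with MC903 and 0.813, 0.362 and 0.557 cpm with ethanol (1.93 ± 0.44 (SE), edgeR adjusted p = 0.9996). On day 8 the uninjected MC903 libraries had 1.32, 1.99, 1.43, 2.11 and 2.38 cpm and the ethanol libraries 0.247, 0.844, 0.0739, 0 and 0.257 cpm (2.94 ± 0.68 (SE), edgeR adjusted p = 0.224). After PBS the values were 1.004, 0.722, 0.808 and 1.11 cpm with MC903 and 0.125, 0.0937 and 0.149 cpm with ethanol (2.84 ± 0.42 (SE), edgeR adjusted p = 0.00372). In these 3 comparisons each MC903 ganglion exceeded each ethanol ganglion, but the counts behind them were few, 72 in 4 MC903 libraries against 7 in 3 ethanol libraries after PBS and 306 against 50 in uninjected mice on day 8. Within the day 8 cohorts the log2 fold change was 1.57 in the first and 4.12 in the second (edgeR adjusted p = 0.528 and 0.884). Without the wild-type-labelled ethanol library whose Crlf2 was near 0, it was 2.46 and was called (edgeR adjusted p = 0.0858). DESeq2 gave no adjusted p for it after PBS because of the low mean count. With aGr1 it had 0.370, 0.142, 0.894 and 1.11 against 0.0943, 0.0947, 0.354 and 0.170 cpm, with overlap (1.83 ± 0.62 (SE)). In the libraries labelled TSLPR KO the log2 fold changes were 1.54 ± 0.74 (SE) on day 8 and 0.92 ± 0.51 (SE) on day 12, neither called. The difference in response between aGr1 and PBS mice was -0.99 ± 0.90 (SE) and between TSLPR KO and wild-type mice -1.42 ± 1.14 (SE), with adjusted p of 0.764 and 0.777 by edgeR. The uninjected groups of separate days do not share libraries. In cord Kcne3 had at most 0.251 cpm in uninjected mice and was not called.

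MC903 acts on the vitamin D receptor, so the promoters of the members that moved most were searched for its half-site, read as AGGTCA, the consensus, as its variants AGTTCA and also GGGTCA, or as the remaining variant GGTTCA, on either strand. RefSeq gives Kcne3 a pair of start sites, at chr7:100176420-100176719, plus strand and chr7:100178433-100178732, plus strand (GRCm38.p6, 250 bases before to 50 after). The upstream window holds 1 match, in capitals on the opposite strand's letters, and the downstream window none.
Kcne3 start site 1: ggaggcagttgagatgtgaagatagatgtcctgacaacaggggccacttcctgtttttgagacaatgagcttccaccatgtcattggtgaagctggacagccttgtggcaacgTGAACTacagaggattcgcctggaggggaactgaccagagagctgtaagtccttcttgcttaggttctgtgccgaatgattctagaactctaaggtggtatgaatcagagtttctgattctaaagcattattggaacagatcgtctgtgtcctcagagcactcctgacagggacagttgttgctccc
Kcne3 start site 2: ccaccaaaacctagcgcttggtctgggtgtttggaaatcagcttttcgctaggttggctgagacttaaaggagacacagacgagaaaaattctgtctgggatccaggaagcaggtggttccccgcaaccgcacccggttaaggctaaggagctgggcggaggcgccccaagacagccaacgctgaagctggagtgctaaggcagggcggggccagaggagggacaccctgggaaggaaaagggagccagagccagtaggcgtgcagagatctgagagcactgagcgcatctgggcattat
Such a match was in 43.7% of all 32851 mouse promoters of this length and in 38.3% of the 94 promoters found for 69 of the 94 members, so it sets neither Kcne3 nor the family apart.

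**Figure D3:**
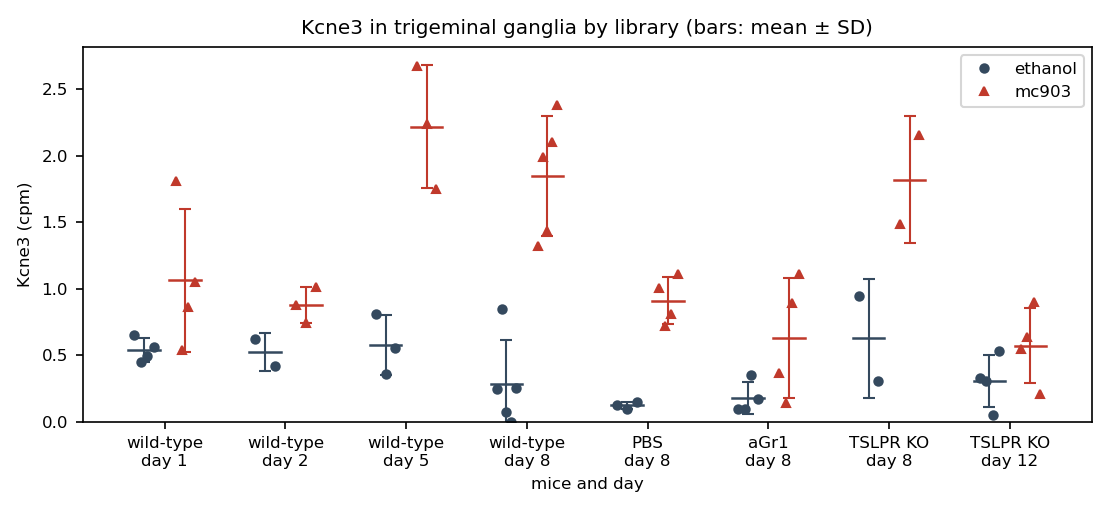
Kcne3 level in cpm in each ganglion library of the 8 comparisons, MC903 and ethanol side by side, with bars for mean ± SD. The MC903 libraries lie above the ethanol libraries without overlap in 5 of the 8 pairs.

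Potassium channel genes were called in ganglia mainly after PBS injection, where 4 rose and 7 fell with MC903. The 11 of 88 members called by edgeR are 12.5%, against 3.36% of all genes, 1.91% higher and 1.45% lower. The median log2 fold change of the members was -0.033 and that of all genes 0.0043. DESeq2 called 12 members and 4.04% of all genes. Leaving out 1 library at a time gave 3 to 19 members: 19 without MC903 replicate 4 (21.6%, against 15.5% of all genes), and 3 to 6 without any other library, the lowest being 3 without ethanol replicate 3. Of the genes that rose, Kcne3 is given above. Kcng1, a silent subunit gene, had 4.52, 4.81, 4.27 and 4.06 cpm with MC903 and 2.12, 2.999 and 2.68 cpm with ethanol (0.75 ± 0.15 (SE), adjusted p = 0.0256 by edgeR). Kcnq5, an M-current subunit gene, had 16.01, 15.3, 15.9 and 14.5 against 11.98, 11.8 and 12.6 cpm (0.35 ± 0.082 (SE), adjusted p = 0.0479 by edgeR). Kcnf1, another silent subunit gene, had 6.27, 6.11, 4.79 and 4.40 against 3.18, 3.94 and 3.22 cpm (0.64 ± 0.16 (SE), adjusted p = 0.0652 by edgeR). The 4 MC903 ganglia lay above the 3 ethanol ganglia for all of these.

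The genes that fell were pore-forming subunits of voltage-gated channels, an inward rectifier and an auxiliary subunit. Kcnh5, an ether-a-go-go channel gene, had 23.3, 24.5, 28.8 and 23.7 cpm with MC903 and 38.9, 34.01 and 34.02 cpm with ethanol (-0.51 ± 0.083 (SE), adjusted p = 0.00669 by edgeR). Kcnh7, a related gene, had 194, 205, 214 and 237 against 269, 259.7 and 261 cpm (-0.31 ± 0.060 (SE), adjusted p = 0.0205 by edgeR). Both were lower in every MC903 ganglion, and both were among the 3 smallest p-values of day 2, in separate mice, where neither was called. Kcnc2, of fast-spiking channels, had 28.5, 25.7, 27.3 and 27.6 against 33.3, 34.2 and 35.7 cpm (-0.34 ± 0.063 (SE)). Kcna2 had 837, 872, 880.5 and 1013 against 1095, 1042 and 1050.1 cpm (-0.24 ± 0.058 (SE)), and Kcnab1, which binds Kcna channels, fell by 0.23 ± 0.059 on the log2 scale. These 3 did not overlap between groups, whereas the delayed rectifier gene Kcnb2 (-0.30 ± 0.070 (SE)) and Kcnj3, a G protein-gated rectifier gene (-0.42 ± 0.11 (SE)), fell with overlapping libraries. Kcnj3 shares 31.1% of its exon bases with Gm26794 on the other strand, so reads of the pair may not be separable. Adjusted p of these 5 ran from 0.0171 to 0.0709 by edgeR. Kcnma1 and Kcna1 were just outside at 0.103.

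In the same ganglia 4 of 12 sensory neuron markers were called higher with MC903, at summed levels of 7302 to 8087 cpm against 7143 to 7186 cpm with ethanol, and 3 of 6 skeletal muscle markers were called lower, at 7.15 to 9.12 against 9.28 to 27.1 cpm. Of 5 vessel and meninges markers 1 was called lower, and their summed level of 527 to 613 cpm did not overlap that with ethanol (626 to 677 cpm). Their part in the potassium channel changes was not tested.

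**Figure D4:**
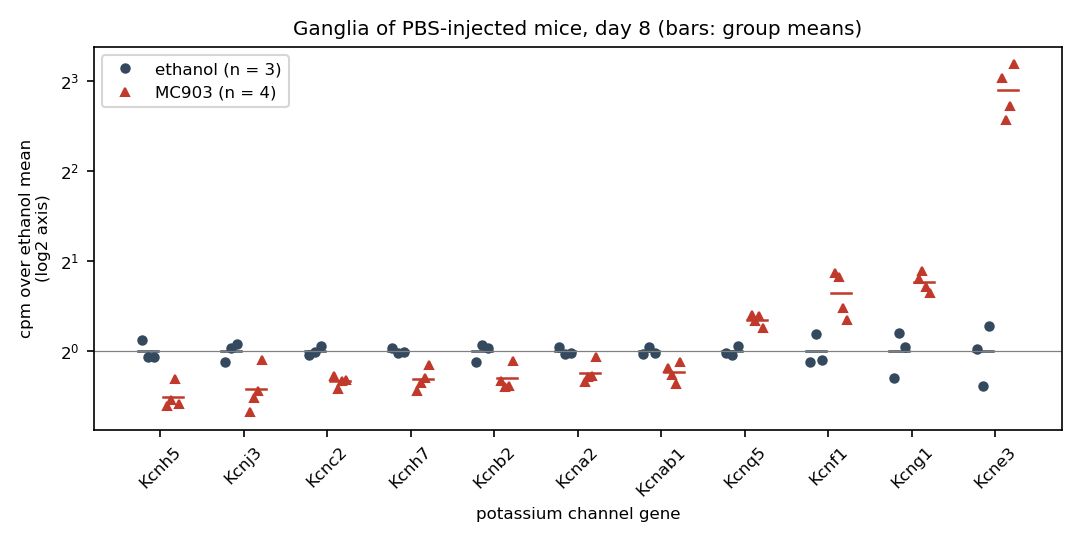
Level of the 11 members called in ganglia of PBS-injected mice, as cpm divided by the ethanol mean on a log2 axis, for 3 ethanol and 4 MC903 libraries, with bars for group means. Kcne3 lies far above the others, and the MC903 and ethanol points of Kcnb2 and Kcnj3 overlap.

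In aGr1-injected mice 1 of 88 members was called, Kcnmb1, which encodes the smooth muscle subunit of the large-conductance calcium-activated channel, against 1.88% of all genes (0.875% higher and 1.01% lower). It had 14.001, 11.7, 15.2 and 13.9 cpm with MC903 and 20.2, 17.3, 19.1 and 22.4 cpm with ethanol (-0.53 ± 0.12 (SE), adjusted p = 0.0498 by edgeR). The groups did not overlap, yet 5 of the 8 libraries, left out singly, took the call away, with adjusted p of up to 0.140. DESeq2 called 4, Kcnmb1, Kcng2, Kcnk13 and Kcnq5 (3.66% of all genes), and 15 members (17%) had an unadjusted p under 0.05, beside 12.8% of all genes. In these ganglia 1 of 4 microglia markers was called lower with MC903, at summed levels of 21.2 to 47.1 cpm against 48.1 to 68.1 cpm, without overlap. Of 5 vessel and meninges markers 1 was called higher and 1 lower, at 547 to 883 cpm against 667 to 1123 cpm, and the part of either list in the Kcnmb1 change was not tested. Kcnmb1 was negative in 7 of 8 ganglion comparisons. None of 90 members differed in response between aGr1 and PBS mice by edgeR (0 called against 0.0349% of all genes, 0.00388% in the positive and 0.0311% in the negative direction, 10 members and 8.93% of all genes at an unadjusted p under 0.05) or by DESeq2 (0, and 0.571% of all genes). The smallest p-values were those of Kcnh7, with a difference of 0.34 ± 0.13 (SE), Kcnh5 with 0.51 ± 0.19 (SE) and Kcnn4 with -0.62 ± 0.24 (SE), at adjusted p from 0.450 to 0.465. With aGr1, Kcnh5 changed by -0.011 ± 0.15 (SE) and Kcnh7 by 0.022 ± 0.10 (SE), neither of them called, and the difference between the treatments did not pass its own test.

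In the libraries labelled TSLPR KO, 0 of 87 members were called on day 8, with 2 libraries a group (0% of all genes, 9 members and 8.06% of all genes at an unadjusted p under 0.05, 0 members and 0.791% by DESeq2), and 0 of 90 on day 12 (0.304% of all genes, 0.289% higher and 0.0154% lower, 15 members and 7.22% of all genes at an unadjusted p under 0.05). DESeq2 called 2 on day 12, Kcng1 and Kcnq5, and 1% of all genes. On day 8 the smallest p-values included those of Kcnn3 (-1.48 ± 0.50 (SE)) and Kcnk9 (3.35 ± 1.17 (SE)). Kcnk9 had 0.841 and 1.16 cpm with MC903 and 0.0326 and 0.155 cpm with ethanol, which amount to few counts. Uninjected wild-type ethanol ganglia of day 8 ran from 0.333 to 2.31 cpm. On day 12 Kcnq5 had 19.5, 20.2, 17.5 and 15.8 cpm with MC903 and 11.3, 14.2, 13.9 and 10.02 cpm with ethanol (0.56 ± 0.13 (SE)). Kcng1 had 6.14, 6.30, 5.08 and 4.17 against 2.33, 4.12, 3.15 and 1.64 cpm (0.95 ± 0.25 (SE)). Neither overlapped, and both are also genes that rose after PBS, in other mice. Same-numbered day 12 libraries deviated together, and with the replicate block 4 members were called by edgeR, among them Kcng1 (0.99 ± 0.16), Kcnq5 (0.57 ± 0.093) and Kcnj3 (-0.33 ± 0.068), which is 4.44% against 1.37% of all genes. The difference in response between libraries labelled TSLPR KO and wild-type on day 8 was called for 0 of 91 members by edgeR (0% of all genes, 6 members and 8.41% of all genes at an unadjusted p under 0.05) and 0 by DESeq2 (0.636% of all genes), the smallest p-values being those of Kcnk9 (3.66 ± 1.07 (SE)), Kcnn3 (-1.24 ± 0.45 (SE)) and Kcnc4 (0.36 ± 0.15 (SE)).

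In cord MC903 changed potassium channel genes at about the rate of all genes. In uninjected mice 3 members rose and 7 fell of 92 tested, 10.9% against 12.2% of all genes (5.05% higher and 7.14% lower) by edgeR at an adjusted p under 0.05, and in aGr1 mice 7 rose and 7 fell of 92, 15.2% against 11.3% (4.54% higher and 6.79% lower). In PBS mice, with 2 libraries a group, 0 of 88 were called by edgeR (0% of all genes) and 0 by DESeq2 (0.724%), and 8 had an unadjusted p under 0.05 (9.09%, beside 6.39% of all genes). DESeq2 called 13 members in uninjected mice (14.1% against 16.8% of all genes) and 17 in aGr1 mice (18.5% against 13.6%). These comparisons share no libraries. Called in both were 8 members, among them Kcna6, Kcne1l, Kcnip3, Kcnk1, Kcnk13, Kcnk9 and Kcnt1, which is 80% of the uninjected and 57.1% of the aGr1 calls, each in the same direction. Over all genes 54.1% of the uninjected and 53.8% of the aGr1 calls were shared, also all in the same direction.

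The genes that rose encode leak and sodium-activated channels. Kcnk1 had 204, 205, 200.4 and 259 cpm with MC903 and 137, 137, 140.3, 133.5 and 142 cpm with ethanol in uninjected mice (0.65 ± 0.082 (SE), adjusted p = 1.50e-04 by edgeR). In aGr1 mice it ran from 91.5 through a median of 104 to 115.8 cpm with MC903 and from 79.8 through a median of 85.8 to 96.9 cpm with ethanol (0.23 ± 0.054 (SE), adjusted p = 0.00740 by edgeR). The uninjected groups did not overlap and the aGr1 groups did. In PBS mice it was 112.4 and 104 against 78.9 and 74.5 cpm (0.50 ± 0.12 (SE)), the smallest p of that comparison and not called. Kcnt1, the sodium-activated channel gene, had 199, 215, 190.4 and 180.3 against 87.8, 129.2, 120.4, 141 and 157 cpm in uninjected mice (0.63 ± 0.13 (SE), adjusted p = 0.00650 by edgeR). In aGr1 mice it ran from 238 through a median of 253 to 298 cpm against from 189 through a median of 196 to 207 cpm (0.37 ± 0.047 (SE), adjusted p = 3.80e-05 by edgeR). Kcnk9 rose by 0.44 ± 0.11 in uninjected and by 0.28 ± 0.057 in aGr1 mice on the log2 scale. No library of Kcnt1 or Kcnk9 crossed between groups in either setting. Other genes called higher in aGr1 mice included Kcnip2, an A-type channel subunit gene (0.49 ± 0.078 (SE)), Kcng2, a silent subunit gene (0.46 ± 0.11 (SE)), and Kcnab3 (0.13 ± 0.041 (SE)), each with libraries that overlapped.

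The genes that fell included Kcnk13, Kcna6 and Kcnip3. Kcnk13 encodes THIK, the tonically open leak channel that sets the resting potential of microglia, at chromosome 12, 99964499 to 100062682, plus strand (GRCm38). It had 6.93, 6.56, 10.4 and 6.24 cpm with MC903 and 30.9, 26.03, 24.8, 23.7 and 24.2 cpm with ethanol in uninjected mice (-1.79 ± 0.15 (SE), adjusted p = 5.31e-06 by edgeR). In aGr1 mice it ran from 10.6 through a median of 16.2 to 20.5 cpm with MC903 and from 22.8 through a median of 24.95 to 32.03 cpm with ethanol (-0.73 ± 0.12 (SE), adjusted p = 5.52e-04 by edgeR). In PBS mice the values were 10.7 and 16.8 against 24.5 and 24.8 cpm (-0.84 ± 0.22 (SE)), not called. The groups did not overlap in any of the 3 settings. Kcna6, a delayed rectifier gene at chromosome 6, 126708329 to 126740674, minus strand, had 47.6, 49.6, 55.8 and 40.2 cpm with MC903 and 115.7, 105, 111.8, 106 and 102 cpm with ethanol (-1.16 ± 0.092 (SE), adjusted p = 3.06e-06 by edgeR). In aGr1 mice it ran from 50.4 through a median of 67.3 to 72.2 cpm against from 79.3 through a median of 86.03 to 91.3 cpm (-0.43 ± 0.077 (SE), adjusted p = 0.00114 by edgeR). Here too no MC903 library reached an ethanol library. Of its exon bases, 39.6% are shared with the antisense gene Gm26673, which also fell, by 0.94 in uninjected and 0.42 in aGr1 mice on the log2 scale (edgeR adjusted p = 0.00465 and 0.0291). Gm26673 was at 1.36 to 1.86 cpm with MC903 and 2.58 to 3.49 cpm with ethanol in uninjected cord. As the counting is not stated to use strand, reads of the pair on the shared bases cannot be told apart. The promoters of both genes are given as those of the falling members with the smallest p in uninjected cord, and neither holds a vitamin D receptor half-site, which would be in capitals.
Kcnk13 (chr12:99964249-99964548, plus strand): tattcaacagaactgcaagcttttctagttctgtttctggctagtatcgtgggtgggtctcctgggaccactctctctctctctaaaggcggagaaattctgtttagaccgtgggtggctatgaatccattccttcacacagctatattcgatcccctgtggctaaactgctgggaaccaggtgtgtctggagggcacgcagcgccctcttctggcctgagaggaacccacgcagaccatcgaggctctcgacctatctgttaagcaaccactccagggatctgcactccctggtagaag
Kcna6 (chr6:126740625-126740924, minus strand): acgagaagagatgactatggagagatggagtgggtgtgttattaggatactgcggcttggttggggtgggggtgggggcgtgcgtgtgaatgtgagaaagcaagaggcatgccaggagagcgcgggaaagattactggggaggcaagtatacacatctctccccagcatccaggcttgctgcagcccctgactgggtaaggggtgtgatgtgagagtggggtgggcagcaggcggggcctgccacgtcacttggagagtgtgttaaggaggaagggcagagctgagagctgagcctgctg

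Kcnip3, a calcium-binding A-type channel subunit gene that also encodes a transcriptional repressor, had 35.1, 39.7, 43.5 and 41.6 against 122.1, 59.3, 58.9, 58.2 and 58.7 cpm in uninjected mice (-0.84 ± 0.20 (SE)), with ethanol replicate 1 the highest, and fell by 0.29 ± 0.057 in aGr1 mice. Kcne1l, a subunit gene of Kcnq channels, fell by 0.73 ± 0.19 and 0.69 ± 0.088 on the log2 scale in uninjected and aGr1 mice. Adjusted p of these 2 genes ran from 4.03e-05 to 0.0216 by edgeR. Called in uninjected mice alone were Kcnn3, a small-conductance calcium-activated channel gene (-0.59 ± 0.11 (SE)), and Kcnmb1. Kcnmb1 had 0.126, 0.211, 0.131 and 0.101 against 2.36, 0.864, 0.344, 0.676 and 0.481 cpm (-2.66 ± 0.59 (SE), adjusted p = 0.00962 by edgeR). Ethanol replicate 1 held 2.36 cpm, above the others, and without it the log2 fold change was -1.98 (edgeR adjusted p = 0.00420). Its aGr1 change was -0.30 ± 0.20 (SE), not called. Called in aGr1 mice alone were the silent subunit genes Kcns1 (-0.30 ± 0.083 (SE)) and Kcng1 (-0.42 ± 0.13 (SE)). 

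**Figure D5:**
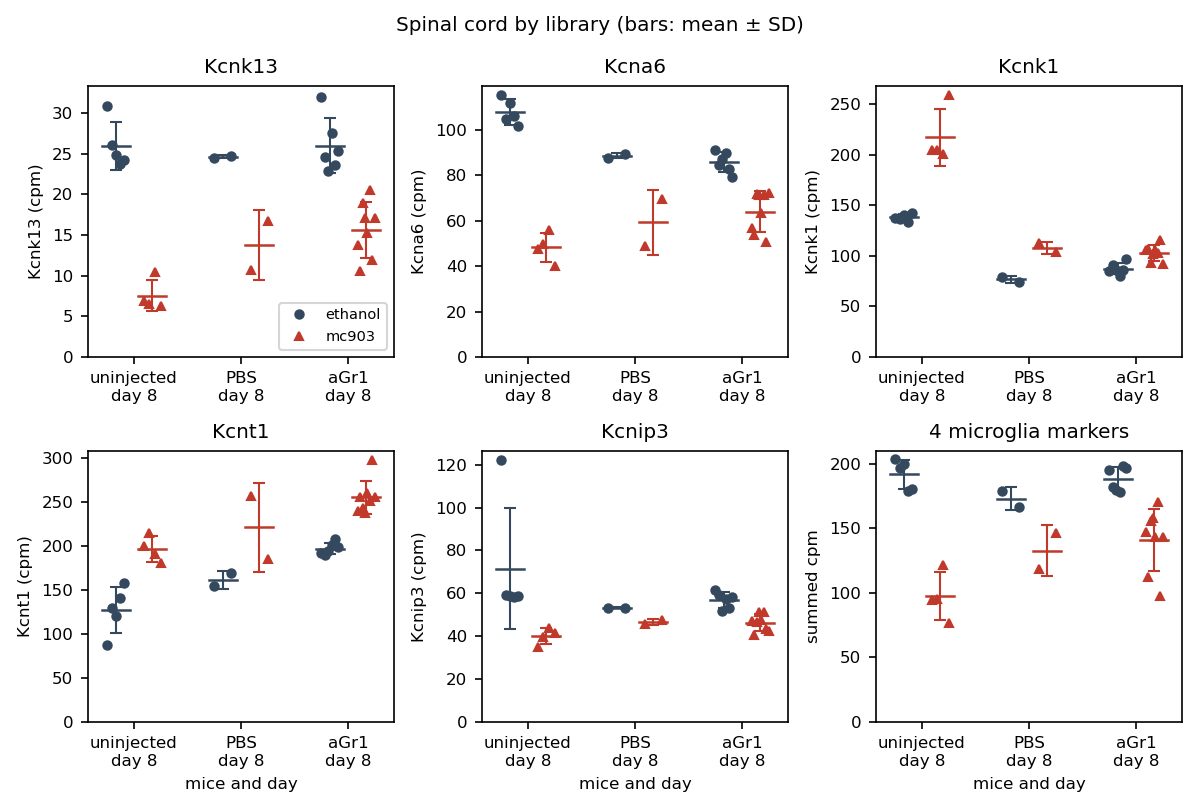
Level in cpm of Kcnk13, Kcna6, Kcnk1, Kcnt1 and Kcnip3, and the summed cpm of 4 microglia markers, in each cord library of uninjected, aGr1 and PBS mice, MC903 and ethanol side by side, with bars for mean ± SD. Kcnk13 and Kcna6 are lower with MC903 without overlap in all 3 settings.

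Markers of microglia moved with Kcnk13. All 4 were called lower with MC903 in uninjected cords, at summed levels of 76.8 to 121.7 cpm against 179 to 204 cpm, and in aGr1 cords, at 97.8 to 170.2 against 178 to 198 cpm, while none was called in PBS cords (118.7 to 146 against 167 to 179 cpm). Of the oligodendrocyte markers 3 of 4 were called lower in uninjected and 3 in aGr1 cords, at 3706 to 4687 against 3984 to 5834 cpm and 4324 to 5005 against 4255 to 5340.2 cpm. Of 5 vessel and meninges markers 3 were called lower in uninjected cords, where Kcnmb1 fell, at 130.8 to 144 against 179.7 to 301 cpm, and none in aGr1 cords (100.3 to 207 against 89.8 to 247 cpm). Their part in the potassium channel changes was not tested.

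The response did not differ detectably between aGr1 and PBS cords. Of 92 members 0 were called by edgeR (0% of all genes) and 0 by DESeq2 (0.00352%), and 4, beside 5.23% of all genes, had an unadjusted p under 0.05, Kcns1 (-0.48 ± 0.18 (SE)), Kcnn1 (-0.34 ± 0.13 (SE)), Kcnk1 (-0.27 ± 0.11 (SE)) and Kcnj14 (-0.50 ± 0.24 (SE)), all with an adjusted p of 0.877. With only 2 libraries in each PBS group the standard errors were wide, and for Kcnk13 the difference was 0.093 ± 0.28 (SE). Set against uninjected mice instead, the response of aGr1 cords was smaller for 3 of 93 members (0.532% of all genes called), Kcna6 (difference 0.70 ± 0.13, edgeR adjusted p = 0.00879), Kcnk13 (1.02 ± 0.21, edgeR adjusted p = 0.0210) and Kcnk1 (-0.46 ± 0.095, edgeR adjusted p = 0.0268). The aGr1 and uninjected mice differ by the antibody, by the injection itself and possibly by batch, which cannot be told apart. With ethanol alone, the Kcnk1 levels given above were lower in every aGr1 cord than in every uninjected cord. Whether this difference in level has a part in the 3 calls was not tested.

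Calls were also compared between ganglion and cord. Of 26 members called in at least 1 MC903 comparison, 12 were called in ganglia and 16 in cord, and 2 in both, which is 16.7% of the ganglion and 12.5% of the cord calls, beside 39% and 9.64% over all genes. Kcng1 rose in ganglia after PBS (0.75) and fell in aGr1 cord (-0.42), whereas Kcnmb1 fell in aGr1 ganglia (-0.53) and in uninjected cord (-2.66). Called in at least 2 comparisons were 10 members. Neither this count nor that of the 26 is set against all genes here.

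A set of 15 members with known roles in itch, pain or resting excitability (among them Kcnk18, Kcnk2, Kcnk4, Kcnk10, Kcns1, Kcna1, Kcna2, Kcnd3, Kcnq3, Kcnj10, Kcnt1, Kcnma1, Kcnn4 and Kcnj6) was followed whatever its values. In the ganglia 1 of them was called, Kcna2 after PBS, where 3.36% of all genes were called. In cord 1 was called in uninjected mice (Kcnt1) and 3 in aGr1 mice (Kcnt1 and Kcns1 among them), beside 12.2% and 11.3% of all genes. Kcnk18 ranged in ganglia from -0.60 to 0.30 in log2 fold change over the 8 comparisons and was called in none. After PBS it had 35.5, 29.5, 31.8 and 29.3 cpm with MC903 and 31.3, 27.5 and 31.2 cpm with ethanol, ranges that overlapped. In cord it was at 13 counts over 4 MC903 and 1 over 5 ethanol libraries of uninjected mice, and 27 over 8 against 8 over 6 in aGr1 mice, not called. Kcnq3, an M-current gene, ranged in ganglia from -0.55 to 0.092.

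Genes that anchor potassium channels in the membrane or work beside them were counted from a list of 32, comprising A-type channel partners, axonal adhesion and scaffold genes, LGI proteins, HCN channels and sodium pump subunits. After PBS 6 of 31 tested were called in ganglia (19.4% against 3.36% of all genes), among them Dpp10 (-0.30 ± 0.050), Cntnap2 (-0.19 ± 0.047), Lgi2 (-0.26 ± 0.063) and Dlg2 (-0.28 ± 0.052), which fell, and Atp1b3 (0.25 ± 0.050), which rose. Cntnap2 is the protein that clusters Kcna channels beside the node of Ranvier. In cord Cntnap2 was called higher in uninjected (0.38 ± 0.077) and aGr1 mice (0.22 ± 0.061), and Cntn2 (-0.37 ± 0.065 and -0.18 ± 0.051), Dlg1 (-0.26 ± 0.069 and -0.20 ± 0.037) and Hcn2 (-0.65 ± 0.077 and -0.41 ± 0.066) were called lower in both. In all, 7 of 32 were called in uninjected and 6 of 32 in aGr1 cord, 21.9% and 18.8% against 12.2% and 11.3% of all genes. None was called on days 1 to 8 in uninjected wild-type ganglia.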

How the data were processed

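RNA was extracted with RNAzol from ganglia and cord, and poly(A) libraries were read single-end. The authors aligned reads to mm10 and counted them per Ensembl gene, and the deposited files hold these raw counts, 1 per gene and library, with 5 tally lines that were left out of library sizes. The submitters' processing notes name Bowtie2, TopHat, TopHat2 and HTSeq. The annotation and strand setting are not given in the sources used here. Of 162 libraries, 83 were compared (56 ganglia and 27 cords), and 70 skin libraries and 9 wild-type day 12 ganglia were not used here. Symbols came from GENCODE M21, and 935 of 46078 gene identifiers had none.

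For each comparison a quasi-likelihood model of edgeR 4.0.16 (glmQLFit, glmQLFTest, R 4.3.3) was fitted to the counts after TMM scaling, over every gene whose counts summed to 10 or more. Tests were two-sided, and p-values were adjusted by Benjamini-Hochberg over all genes fitted. Following the study's thresholds, genes were called at an adjusted p under 0.1 in ganglia and under 0.05 in cord, and between tissues under 0.05 with over 2-fold. Day 8 wild-type ganglia had cohort as a term. Cpm were taken on TMM-scaled library sizes, and levels between genes were divided by exon length. The fit was tested on simulated data. DESeq2 1.42.0, its size factors, edgeR's filterByExpr, no filter, a replicate block and leaving out each library were alternatives.

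Named were up to 10 members per direction with the smallest p among those called (between tissues, the largest fold), the 3 smallest p where none was called, the 5 highest levels per tissue, and 15 members of known role, apart from some genes that are not reported here. The members, lists and tests were chosen with earlier results of these data known. Over 138 replicate pairs, counts differed by at least 2.70 times sampling noise, so every library was kept as 1 replicate. Same-numbered libraries deviated together on day 5 (r from 0.15 to 0.35) and in TSLPR KO day 12 ganglia (r from 0.17 to 0.53), the pairing being read from the data alone. Counting intervals cover counting error only.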

Additional observations from a re-analysis of the deposited data

Results flagged for a closer look

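Named genes were screened in groups of 4 to 10 libraries with Dixon's ratio, which chance alone exceeds in about 1 in 20 groups, and 13 groups, 9.92% of those screened, held a library far from the others. Cord ethanol replicate 1 of uninjected mice was the high library for Kcnmb1 (2.36 cpm against 0.344 to 0.864) and Kcnip3 (122.1 against 58.2 to 59.3), and in the comparison with ganglia for Kcnmb1 (2.35), Kcnj10 (1589 against 1168 to 1212) and Kcna1 (1013 against 741 to 788). Without this library Kcnmb1 and Kcnip3 were still called in uninjected cord, and 26 members were higher in ganglia and 26 in cord. Among MC903 cords of uninjected mice, replicate 4 was high for Kcnk1 (259 cpm against 200.4 to 205) and replicate 3 for Kcnk13 (10.4 against 6.24 to 6.93). Among aGr1 cords, MC903 replicate 7 was high for Kcnt1 (298 against 238 to 259.9) and MC903 replicate 1 for Kcne1l (8.04 against 5.25 to 6.17). The single Kcnk18 count of the cords compared with ganglia gave cord replicate 2 a level of 0.0306 cpm with the others at 0.

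In ganglia, day 1 ethanol replicate 1, the library with high pituitary markers, was high for Kcnf1 (11.3 cpm against 3.07 to 4.35). Day 8 MC903 replicate 1 of the first cohort was low for Kcna2 (950.4 against 1092 to 1149.6), and ethanol replicate 1 of that cohort was high for Kcnab3 (2.45 against 1.49 to 1.75).

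The MC903 response of cord differed between aGr1-injected and uninjected mice by an interaction test for 3 members. The difference was 0.70 ± 0.13 for Kcna6, 1.02 ± 0.21 for Kcnk13 and -0.46 ± 0.095 for Kcnk1 on the log2 scale, in each case toward a smaller response with aGr1. The antibody, the injection and a possible batch difference cannot be told apart in that test. Against PBS-injected mice none of the 3 was called. The summed microglia markers also lay closer to ethanol in aGr1 cords (97.8 to 170.2 against 178 to 198 cpm) than in uninjected cords (76.8 to 121.7 against 179 to 204 cpm), and their part in the difference was not tested.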

How the results depend on the processing

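Of 253 recalculated counts of members called, 220 stayed within 1.5 times the reported count. Of 1530 recalculated values of named genes, 1425 kept their direction and side of the threshold, 76 were no longer past it, 29 passed it newly and 0 of the values of called genes reversed. All 23 named tissue differences were called under every alternative, as were 18 of the 36 named MC903 calls. With DESeq2 the ganglion counts were 1 on days 1, 2 and 5, 4 with aGr1 and 2 for TSLPR KO day 12. Without a filter they were 3 on day 2, 1 on day 8 and 1 for the difference between TSLPR KO and wild-type. With edgeR's filterByExpr the aGr1 count was 2, and in 1 fit over days 1 to 8 the day 8 count was 1 (Kcne3). The counts without a filter, with filterByExpr and in that fit are not set against all genes here. The cord difference counted 3 against uninjected mice. The causes were not tested, apart from the smaller set of genes or libraries that a setting leaves by its construction.

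Leaving out 1 library at a time gave 0 to 22 members on day 2 (22 without ethanol replicate 2), 0 to 1 on day 8 (1 without ethanol replicate 2 of the second cohort), 0 to 1 with aGr1, 3 to 19 after PBS (19 without MC903 replicate 4), 0 to 29 in PBS cord (29, with 25.6% of all genes, without MC903 replicate 2 and 5 without MC903 replicate 1), 0 to 2 for the difference between TSLPR KO and wild-type (2 without TSLPR KO MC903 replicate 2) and 0 to 2 for that between aGr1 and PBS cord (2 without PBS MC903 replicate 2). Where 1 library was left in a group, it was assumed to vary like the others. In uninjected and aGr1 cord the ranges were 8 to 13 and 12 to 17 members, beside 1887 to 4960 and 2485 to 3798 over all genes.

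Replicate numbers marked only a number in the ganglia after PBS, where the replicate block gave 17 members (14.7% of all genes), and in uninjected and aGr1 cord, where it gave 7 and 10 (6.83 and 7.2%). In PBS cord, with a correlation of -0.35 between same-numbered libraries, the block gave 1 (Kcnk13), beside 224 over all genes. The block with crossed numbers, chosen after seeing the data, gave 4, beside 955 over all genes. For TSLPR KO day 12 the replicate block gave 4, beside 356 over all genes, and on day 5 it changed no call.

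Depth limits the genes of few counts most: Kcne3 after PBS rests on 7 ethanol counts, and comparisons with 2 libraries in a group can miss changes of the size called elsewhere.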

Other observations

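Of 85 members tested in all 8 ganglion comparisons, 1 was higher with MC903 in each (Kcne3) and 5 were lower in each, the ether-a-go-go family genes Kcnh5 (-0.97 to -0.011 in log2 fold change) and Kcnh8 (-0.51 to -0.036), Kcnc2 (-0.34 to -0.023), Kcnj3 (-0.56 to -0.17) and the silent subunit gene Kcns2 (-0.66 to -0.016). These are 1.18 and 5.88% of the members, beside 1.93 and 2.58% of all genes. The low ends of these ranges are within the spread of the libraries, and no test of the direction alone was run. These genes were named after their values were seen.

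Of 88 members tested in all 3 cord comparisons, 20 were higher and 20 lower with MC903 in each, 22.7% either way, beside 24.8 and 24% of all genes. Among the higher were Kcna1 (0.16 to 0.32) and the genes of its cytoplasmic subunits Kcnab1 (0.056 to 0.16), Kcnab2 (0.048 to 0.18) and Kcnab3 (0.13 to 0.20), of which 1, Kcnab3, was called in 1 comparison. The Kcna family as a whole did not rise. Kcna5 was also higher in each, Kcna3, Kcna4, Kcna6 and Kcna7 were lower in each, and Kcna2 and Kcna10 changed sign between comparisons. Among the lower were the glial inward rectifier gene Kcnj10 (-0.15 to -0.11) and Kcnv1, a silent subunit gene (-0.45 to -0.32), called in none.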
